A study of Drosophila melanogaster with 6 samples.

Results

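The 660 regions described here are stretches of the Drosophila melanogaster genome where 5-methylcytosine antibody enrichment was called as a peak more than 5000 bp from every annotated gene. Peaks of 6 libraries were pooled, overlapping peaks were merged into regions, and regions on chromosome arms 2L, 2R, 3L, 3R, 4 and X were kept if they cleared every gene span of the dm6 RefSeq annotation by that distance. They are 14.7% of the 4486 merged regions on those chromosomes and 14.5% of all 4538. The assay, MeDIP-seq, sequences the sheared genomic fragments that a 5-methylcytosine antibody pulls down, and part of the same DNA is kept as input. The lead group (labelled F3-800um) and the control group (labelled F3-0um) each held 3 libraries, all from adult heads of wild-type (WT) flies, and the series compared methylation after lead exposure with that of controls. The labels do not explain F3, and nothing in them says whether replicates are separate animals or cultures, so p-values reflect the spread among these samples alone, and it may be technical. Whole heads mix neurons, glia, muscle, fat body and cuticle cells, so a peak cannot be placed in a cell type.

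Flies lack the maintenance and de novo cytosine methyltransferases that methylate mammalian genomes, and cytosine methylation in adult fly DNA is known to be sparse. Gene-poor sequence in this genome is of several kinds. Pericentric heterochromatin, beside the centromeres, is rich in transposons and satellite repeats and holds few genes. Subtelomeric sequence at chromosome ends carries repeat arrays and telomeric retrotransposons, and piRNA clusters are transposon-filled intergenic loci whose transcripts are cut into small RNAs that silence transposons. In the arms, large gaps between genes often surround developmental regulators and neuronal adhesion genes.

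The lists held 3522, 1379 and 2536 peaks in lead libraries 1, 2 and 3, against 1746, 2414 and 2157 peaks in control libraries 1, 2 and 3. How deeply each library was sequenced is unknown, so a region without a peak is not thereby unmethylated, and a library with more peaks can occupy more regions. Lead library 1 stands apart: of the gene-distant regions found in it alone, 30 of 92 (32.6%) lay on X, and of the other regions found in it alone, 398 of 775 (51.4%) did.

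Gene-distant regions were found in every library, in numbers that overlapped between the groups. Lead libraries 1, 2 and 3 had a peak in 473, 202 and 409 of them, and control libraries 1, 2 and 3 in 245, 393 and 308. Both the highest and the lowest of the 6 values belonged to lead libraries. The means were 361 ± 142 regions per lead library and 315 ± 74.3 per control library (SD, n = 3 each), a difference of 46 regions that did not exceed the spread (exact permutation test over 20 assignments, two-sided, p = 0.7; the smallest p possible is 0.1). Without lead library 1 the difference was -9.67 regions, without lead library 2 it was 125.7, and with the same number of peaks taken from each list it was -1.

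The peaks in these regions took up 145 ± 52.0 kb per lead library and 129 ± 26.6 kb per control library (SD over 3 each; exact permutation p = 0.7). As a share of each library's peaks on the 6 chromosomes, gene-distant peaks made up 13.9%, 15.6% and 16.7% in the lead libraries and 14.7%, 17.0% and 14.9% in the control libraries. The shares interleaved, with means of 15.4 ± 1.40% in lead and 15.5 ± 1.28% in control (SD, n = 3 each; exact permutation p = 0.9). Over the 15 pairs of libraries, the Jaccard index of occupied regions, the number shared by a pair over the number in either, ran from 0.375 to 0.575, with a mean of 0.491 within groups and 0.499 between groups.

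**Figure D1:**
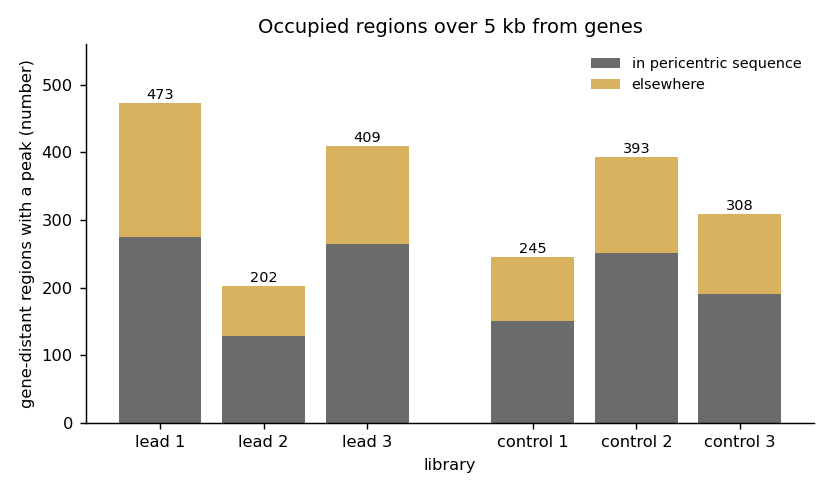
Number of gene-distant regions (y axis) holding a peak in each lead library and each control library (x axis), with regions in pericentric sequence in grey and all others in yellow. The totals run from 202 to 473 in lead and from 245 to 393 in control libraries, and pericentric regions are the larger part of each bar.

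Most gene-distant regions lay near the centromeres. With approximate, rounded bounds for pericentric sequence on 2L, 2R, 3L, 3R and X, 386 of the 660 (58.5%) were pericentric, against 442 of the 3826 other regions (11.6%). Chromosome 2R held 188 of the 660, 3L held 167, X held 118, 3R held 114, 2L held 53 and chromosome 4 held 20. Chromosome X carried 17.9% of gene-distant regions and 29.4% of the others. By library, pericentric regions numbered 275, 129 and 265 in lead and 150, 251 and 190 in control, and regions elsewhere 198, 73 and 144 in lead and 95, 142 and 118 in control. Neither set separated the groups (exact permutation p = 0.7 and 0.6).

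Per length of sequence, peaks were denser far from genes than near them, and the excess moved with pericentric sequence. Between the first and last gene of each chromosome, sequence over 5 kb from genes spans 15.99 Mb and the rest 116.6 Mb. Lead libraries 1, 2 and 3 had 27.8, 11.8 and 23.4 peaks per Mb in the gene-distant sequence, against 25.7, 9.75 and 17.7 in the rest. Control libraries 1, 2 and 3 had 14.1, 22.7 and 18.2 peaks per Mb in the gene-distant sequence, against 12.5, 16.8 and 15.5 in the rest. The gene-distant density was higher in 6 of 6 libraries, by 1.08 to 1.35 times, with a mean log2 ratio of 0.27 ± 0.13 (SD, n = 6; exact sign-flip permutation test, p = 0.031, the smallest possible). Each library left out in turn left the exact p at 0.0625, the smallest that 5 libraries allow. With the bound at 2000 bp the ratio was 0.0285 (exact p = 0.406), and with distance measured from protein-coding genes only it was 0.12 (exact p = 0.0625).

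With pericentric sequence left out the ratio reversed in all 6 libraries. There lead libraries had 21.6, 7.88 and 15.1 peaks per Mb far from genes, against 25.2, 9.21 and 16.7 near them. Control libraries had 9.82, 14.8 and 12.8 far from genes, against 11.9, 15.7 and 14.8 near them. The mean log2 ratio was -0.20, positive in 0 of 6 libraries (exact sign-flip permutation p = 0.031). Within pericentric sequence alone it was 0.12 and positive in 5 of 6 (exact p = 0.0625).

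**Figure D2:**
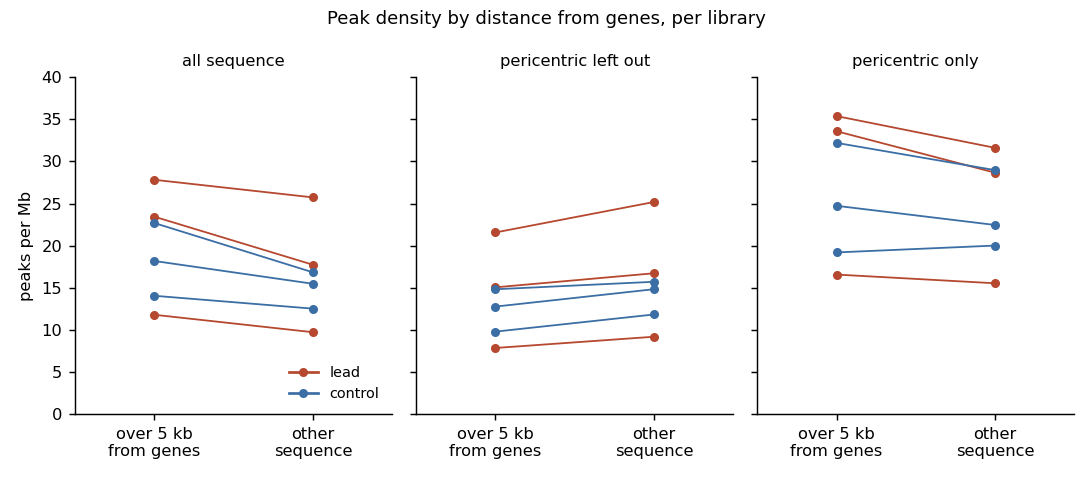
Peaks per Mb (y axis) in sequence over 5 kb from genes and in other sequence (x axis), for all sequence, with pericentric sequence left out, and for pericentric sequence only; each line joins the 2 values of 1 library, lead in red and control in blue. Lines slope down to the right in the first panel, where the mean log2 ratio is 0.27, and up in the middle panel, where it is -0.20.

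Regions deeper in gene deserts were more often pericentric and more often found in every library. Of the regions 5 to 10 kb from a gene, 62 of 195 were pericentric, and of those over 100 kb away 61 of 67 were. The share found in all 6 libraries was 16.4% at 5 to 10 kb, 18.8% at 10 to 20 kb, 23.3% at 20 to 50 kb, 27.5% at 50 to 100 kb and 25.4% beyond. Counted per Mb of sequence between genes in the same distance range, lead libraries averaged 16.3 ± 7.92, 20.4 ± 8.95, 26.8 ± 9.59, 22.9 ± 8.89 and 18.4 ± 6.06 regions from the nearest range to the farthest. Control libraries averaged 13.7 ± 3.54, 16.7 ± 4.70, 26.1 ± 6.32, 17.1 ± 2.78 and 18.1 ± 4.04 (SD, n = 3 each), so the mean was highest at 20 to 50 kb in both groups. The ranges' spreads between libraries overlapped, but all ranges were counted in the same libraries, and 20 to 50 kb was the highest range within every library. The order of the ranges was not tested.

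Regions on either side of the 5 kb bound were of several kinds. Just inside it, a region 5010 bp from CG4597 (3L:5123967-5124489) was found in all 6 libraries, while those 5029 bp from lncRNA:CR45742 and 5038 bp from CG12784 were each found in 1. Just outside it, a region 4986 bp from Pzl (3R:2548614-2549176), the Piezo-like channel gene, was also found in all 6, and those 4967 bp from CG10104 and 4945 bp from CG41378 were found in 2 and 4.

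A peak far from genes was often seen in 1 library only. Of the 660 regions, 222 (33.6%) were found in 1 library, 102 in 2, 71 in 3, 71 in 4, 57 in 5 and 137 (20.8%) in all 6. Over all 4486 regions the same shares were 35.6% in 1 library and 19.5% in all 6, so the gene-distant regions were close to this background. Pericentric members were found in all 6 libraries in 93 of 386 cases (24.1%) and members elsewhere in 44 of 274 (16.1%). The other regions showed 24.2% and 18.7% for the same classes. Single-library regions came from lead libraries 1, 2 and 3 in 92, 5 and 44 cases and from control libraries 1, 2 and 3 in 10, 51 and 20 cases, and both groups include libraries with few and with many.

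Score rank followed the number of libraries. The authors' score is given per peak with no stated meaning, so it was used only as a percentile within each list, where 100 is the highest peak. The median over regions of the mean percentile was 21.0 for regions found in 1 library, 40.5 for those in 4 and 72.3 for those in all 6, against 23.0, 41.8 and 71.4 for other regions. Median region width was 547 bp for those in all 6 and 243.5 bp for those in 1, against 470 and 236 bp for other regions; a region is the union of its merged peaks, so its width can grow with the number of libraries by construction. Of the 25 regions wider than 1 kb, 22 were found in all 6 libraries.

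Peaks far from genes ranked little differently from other peaks in the same list. Their median percentile was 49.0, 54.8 and 52.4 in lead libraries 1, 2 and 3, against 51.1, 49.1 and 49.1 for the other peaks. In control libraries 1, 2 and 3 it was 53.3, 52.7 and 50.5, against 48.4, 49.7 and 50.5. It was higher far from genes in 4 of 6 libraries, by 2.47 ± 2.96 percentile points on average (SD, n = 6; exact sign-flip permutation p = 0.125). Beyond 10 kb from genes the difference was 6.43 points and positive in 6 of 6 libraries (exact p = 0.031). Median peak width differed by 5.5 ± 6.66 bp (SD, n = 6; exact p = 0.125).

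**Figure D3:**
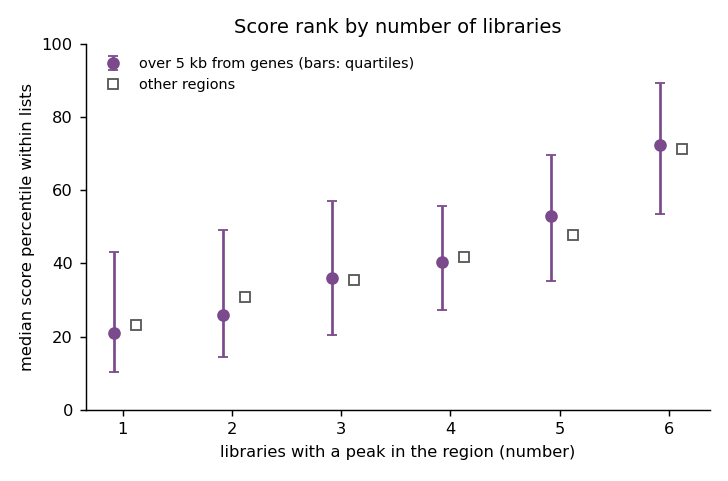
Median within-list score percentile (y axis) of gene-distant regions (filled circles, bars from the lower to the upper quartile) and of other regions (open squares), by the number of libraries with a peak (x axis). Both rise from 21.0 and 23.0 at 1 library to 72.3 and 71.4 at 6 libraries.

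The highest peak of every list lay far from genes. The region 2R:1825694-1826717, 1024 bp wide and pericentric, ranked 1 in all 6 libraries; its neighbours are the pseudogene CR41379, 18352 bp to the left, and CG17684, 39363 bp to the right. The region 2L:23512776-23513708, which lies 96623 bp beyond CR41519, the outermost annotated gene on that side of 2L, ranked 4 in all 6. On X, 22432994-22433222, 11005 bp from CG14621, ranked 9, 10 and 10 in lead and 10, 9 and 11 in control. On 2R, 870229-870696, between CG46302 and CG40498, ranked 14, 14 and 15 in lead and 13, 17 and 14 in control. These ranks moved by a few places at most between libraries and overlapped between the groups.

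The next leading regions also kept high ranks in every list. They are 4:1295791-1296330, 24032 bp beyond Cadps, whose product primes dense-core vesicles for release; 2R:25267813-25268117, 12495 bp beyond CG9380 at the distal end of 2R; X:58221-58488 near the left end of X; and 3L:26783484-26784550, in the desert between CG42598 and CG40228. Each of these 4 had a percentile above 98.0 in every list. The leading region of 3R, 3R:3439342-3439677, lies between spok, an enzyme gene of ecdysone synthesis, and Parp1, which encodes poly(ADP-ribose) polymerase, and ranked 32, 57 and 61 in lead and 31, 38 and 46 in control. Of the 137 regions found in all 6 libraries, 23 were above the 90th percentile in every list and 30 had a mean percentile under 50. The widest was 2R:1641038-1643626, 2589 bp, 5435 bp from CG41520.

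High rank did not always go with presence in several libraries. The region 2R:748748-748952, between DIP-lambda and CG46302, ranked 14 in control library 2 and held no peak in the others. Beyond Cadps, 4:1303410-1303659 was at percentile 93.7 in lead library 1 alone and 4:1302604-1302826 at 90.8 in lead library 3 alone. The 5 regions farthest from any gene had mean percentiles of 8.14 to 52.3: 3R:225597-225824, 341252 bp from Myo81F, a myosin gene, was at percentile 8.26 in lead library 1, its only library. The next farthest, 3L:26772888-26773930, 308161 bp from a gene and named after its values were seen, was found in all 6 libraries with a mean percentile of 97.0.

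Many gene-distant regions shared a gap with others. Of 979 gaps between genes longer than 10 kb, 230 (23.5%) held at least 1 region. Of the 592 regions in these gaps, 380 lay in the 55 gaps that held 3 or more. Clustering beyond that given by gap length was not tested. Pericentric gaps held a region in 80 of 127 cases (63.0%) and gaps elsewhere in 150 of 852 (17.6%). Gap length goes with this: gaps with a region had a median length of 29.7 kb and those without 15.2 kb, and over the 979 gaps the Spearman correlation of length with number of regions was 0.515, as a description, since long gaps offer more sequence. Among gaps of 20 to 50 kb, 31 of 50 pericentric gaps (62.0%) and 93 of 265 elsewhere (35.1%) held a region. Among gaps of 10 to 20 kb, 1 of 24 pericentric gaps (4.17%) and 45 of 567 elsewhere (7.94%) did. Per Mb of gene-distant sequence, gaps of 20 to 50 kb held 59.3 regions if pericentric and 26.6 elsewhere. Gaps of 50 to 100 kb held 49.5 and 27.2 per Mb, and gaps of 10 to 20 kb 12.7 and 20.9. All 21 pericentric gaps over 100 kb held at least 1, with 44.2 regions per Mb of their gene-distant sequence, against 64.4 per Mb in the 4 such gaps elsewhere, of which 3 held a region. Of the 51 regions in those 4 gaps, 31 lay in the X gap from SteXh:CG42398 to lncRNA:CR40469. Another of the 4, from lncRNA:flam to CG40813, was classed by its midpoint and also holds pericentric regions.

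The 10 gaps with most regions held 164 of the 660 (24.8%). First was the X gap between SteXh:CG42398, a gene of the Stellate family, and lncRNA:CR40469, near the left end of the chromosome: 31 regions in 120 kb, or 28.1 per 100 kb of its gene-distant sequence. Lead libraries had 17, 9 and 18 of them and control libraries 10, 21 and 13, with the same mean of 14.7. The 3L gap from Dbp80, a DEAD-box RNA helicase gene, to lncRNA:CR46482 held 25 regions in 399 kb, 16, 10 and 22 in lead and 11, 17 and 16 in control libraries. Both gaps overlapped between the groups.

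The next gaps were the 2R gap from RYa, which encodes the RYamide neuropeptide precursor, to uex, a gene of a magnesium transporter family, with 17 regions, and the 711 kb gap from CG42598 to CG40228 on 3L, with 15 regions or 2.14 per 100 kb. The X gap from lncRNA:flam to CG40813 held 14 regions. The flamenco transcript is the precursor of piRNAs that silence retrotransposons in the somatic cells of the ovary. Lead libraries had 13, 5 and 8 of its regions and control libraries 5, 10 and 7, and 5 of the 14 were found in all 6 libraries, among them X:21938757-21939151 with a mean percentile of 96.8.

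The gaps from spok to Parp1, CG41128 to CG41099 and NijA, a ninjurin cell-surface protein gene, to CG43245 each held 13 regions. The gap from scro, a homeodomain transcription factor gene of the NK family, to CG40472 held 12, and the X gap between the ribosomal RNA gene 2SrRNA:CR45864 and the microRNA gene mir-10404-5 held 11. The NijA gap is the only one of these 5 outside pericentric sequence, with 19.99 regions per 100 kb; lead libraries had 9, 5 and 10 of its regions and control libraries 6, 5 and 8. None of the 10 gaps separated the groups in number of regions.

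**Figure D4:**
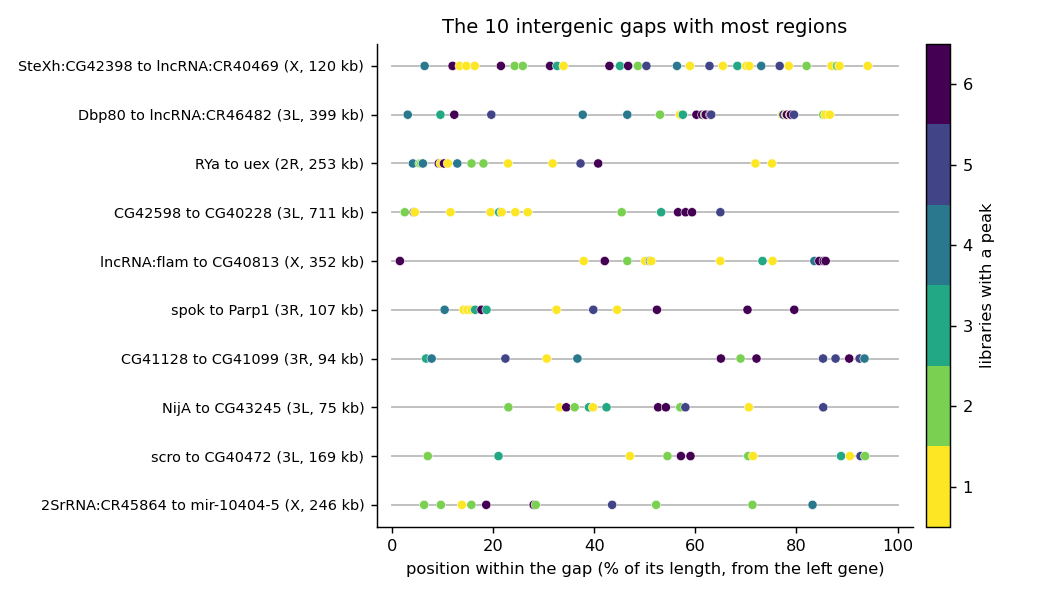
Position of each region (points) along the 10 gaps that hold most of them, as a percentage of the gap length from the left gene (x axis), with the gaps on the y axis and colour giving the number of libraries with a peak. Regions stand in short runs in several gaps, and regions found in 1 library and in 6 libraries lie beside each other; the SteXh:CG42398 gap holds 31 regions, 5 of them in all 6 libraries.

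Not every long gap held a peak. The longest empty one was the 113 kb gap from CG10651 to lncRNA:CR40341 on 2L, the interval known as a piRNA cluster at cytological band 38C. The gap between Pld and lncRNA:CR46075 on 2R, which contains the 42AB piRNA cluster, held 6 regions in 246 kb, with 4, 2 and 3 in lead and 2, 3 and 3 in control libraries. These piRNA gaps were singled out after their values were seen.

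The genes beside gene-distant regions were mostly coding. Of 415 flanking genes, 280 (67.5%) were protein-coding, 100 (24.1%) were lncRNA genes and 25 (6.02%) pseudogenes. Of the 1700 genes beside gaps over 10 kb the shares were 68.2%, 27.1% and 2.12%. By function, 19 of 60 gaps beside a cell adhesion or axon guidance gene (31.7%) held a region, 13 of 63 beside a homeodomain or other developmental transcription factor gene (20.6%), 5 of 31 beside an ion channel or neurotransmitter or peptide receptor gene (16.1%), and 2 of 2 beside a piRNA pathway or heterochromatin gene, against 23.5% of all gaps. Of the 35 regions beside adhesion genes, 18 were pericentric, and of the 17 beside transcription factor genes 0 were.

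Among adhesion genes, the region between dpr21 and CR41243 (2R:3249665-3250513) and the region between Dscam2 and lncRNA:CR45410 (3L:7203876-7204178) were each found in all 6 libraries, with mean percentiles of 93.1 and 89.9. dpr21 and DIP-lambda encode immunoglobulin-domain proteins of interacting families that act in synaptic partner recognition, and Dscam2 a self-avoidance receptor. Near transcription factor genes, a region 5229 bp from oc, the orthodenticle head gene, was found in all 6 libraries (X:8624483-8624930, mean percentile 60.0). A region 7745 bp from run, a pair-rule gene, was found in 5 libraries with a mean percentile of 33.0. Another, 62604 bp from vvl, a POU-domain gene, and 7619 bp from lncRNA:CR45115, was also found in 5 libraries (mean percentile 23.7).

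Near receptor and channel genes, a region 8256 bp from CCKLR-17D3, a cholecystokinin-like receptor gene, was found in all 6 libraries (mean percentile 32.5). Regions near Rdl, the GABA-gated chloride channel gene, and near the L-type calcium channel gene Ca-alpha1D were found in 5 libraries. Beside AGO3, a piRNA-pathway Argonaute gene, the region 3L:23378162-23378570 was found in all 6 libraries, 176023 bp away, with a mean percentile of 76.3.

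Of the 660 regions, 68 lay beyond the outermost annotated gene of an arm, on its centromere side or at its tip. The right end of 4 beyond Cadps held 20 (all of that chromosome's members), the centromere side of 2R before DIP-lambda 19, that of 3R before Myo81F 17, that of 2L beyond CR41519 6, and the tip of 2R beyond CG9380 6. Those on the centromere sides were all pericentric. Beyond Cadps the number of regions occupied was 12, 8 and 12 in lead and 12, 13 and 8 in control libraries.

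Peaks in every library of one group and no library of the other were rare. With a peak in all 3 lead and 0 control libraries there were 3 regions (0.455%), against 0.424% over all 4486 regions, and with a peak in all 3 control and 0 lead libraries there were 0, against 0.156%. The 3 are 2R:887280-887617 between CG46302 and CG40498, 2R:298991-299292 before DIP-lambda, and 3L:24908074-24908366 between scro and CG40472. All were weak: their percentiles in lead libraries 1, 2 and 3 were 23.3, 18.3 and 23.0, then 8.26, 6.24 and 20.4, then 0.0994, 0.834 and 11.0. The first of the 3 lies between 2R:885758-886981 and 2R:887853-890082, regions that were each found in all 6 libraries. For a single region, 3 libraries against 0 gives an exact p of 0.1 (Fisher's exact test). The count moves with the libraries used: it was 32 without lead library 2, which had fewest peaks, 15 without control library 2 and 9 without control library 3, and the control-only count ran from 1 to 5 as each library was left out. Leaving out a library loosens the rule for every region, and the share over all regions was not computed there. With all 6 libraries the counts were near the share over all regions. Those with a library left out have no such share, so neither says anything particular to gene-distant regions.

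With a peak in all 3 lead and 1 control library there were 19 regions (2.88%), against 1.56% over all regions, and with 1 lead and all 3 control libraries 9 (1.36%), against 1.25%. Only regions among the 9 are named here, because the naming rule used this pattern where fewer than 3 regions were in 1 group alone. The best-ranked of the 9 was 3L:24311611-24311920 between Snap25, a gene of synaptic vesicle fusion, and nvd, a cholesterol desaturase gene of ecdysone synthesis, with a percentile of 66.4 in lead library 1 and 80.5, 93.2 and 85.9 in control libraries 1, 2 and 3. The next was 3R:3840258-3840853, 5876 bp from CG41099, with 90.5 in lead library 1 and 66.4, 81.5 and 77.7 in control.

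Among the 137 regions present in all 6 libraries, the median percentile did not separate the groups (77.5 ± 6.70 in lead against 74.4 ± 7.62 in control libraries, SD over 3 each; exact permutation p = 0.7). Lists differ in length, so each region's score was also given a place, its percentage rank among the 877 regions of the series found in every library. That measure was chosen after the data were seen. The members' median place was 46.5, 58.2 and 55.0 in lead and 46.9, 59.0 and 50.6 in control libraries (exact permutation p = 1).

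By place, 15 of the 137 (10.9%) were lower in every lead than in every control library, against 7.87% of the 877, and 17 (12.4%) were higher, against 5.36%. No single region can go below an exact p of 0.1, and neighbouring regions are not independent. Lower regions were 2 of the 93 pericentric members (2.15%) and 13 of the 44 elsewhere (29.5%), against 2% and 9.60% of all shared regions in those classes. Higher regions were 13 of the 93 pericentric members (14.0%) and 4 of the 44 elsewhere (9.09%), against 8% and 4.58%. Lower regions numbered 27 (15.6%) without lead library 2 and 23 (15.9%) without control library 3, where the share of all shared regions was 12.4% and 12.1%. With pericentric sequence left out and places ranked anew, the lower share was 29.5%, against 8.42% of all shared regions. It was 13.4% against 8.92% at scores at or above the list median, and 11.9% against 7.87% beyond 2000 bp from genes. In some other settings the lower share was close to that of all shared regions. It was 12.1% against 12.4% without control library 2, and 7.62% against 7.87% beyond 10000 bp from genes. With equal peak numbers it was 8.60% against 8.46%. Higher regions numbered 31 (22.3%) without lead library 1 and 27 (19.1%) without control library 2, where the share of all shared regions was 11.9% and 10.9%.

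Of the 15 lower regions, 7 lay at the left end of X and the right end of 4. Beyond Cadps, 4:1329041-1329492 had places of 2.57, 21.9 and 63.0 in lead and 77.7, 84.7 and 70.2 in control libraries, the lowest lead minus control difference of all 877 regions (-48.4). Near the left end of X, X:27721-28422 had places of 0.342, 15.8 and 13.7 in lead and 41.0, 72.9 and 47.1 in control libraries (difference -43.7, the second lowest). X:39433-40107 had 1.43, 8.78 and 21.0 in lead and 23.3, 71.7 and 51.9 in control libraries (-38.6, the third lowest).

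In all, 3 of the 5 shared regions in the X gap and 4 of the 6 beyond Cadps were lower in lead. Lead library 1 had the lowest place in each of these 7, and without it the differences were -35.1, -38.9 and -34.1 for the 3 regions above. For the other 4 they were -24.0 on X and -23.6, -15.3 and -12.0 on chromosome 4. The leading regions of the same ends did not follow. X:53619-54193 was higher in every lead library, at 98.4, 98.6 and 98.4, against 96.2, 97.7 and 96.7 in control libraries. The groups overlapped at 4:1295791-1296330.

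**Figure D5:**
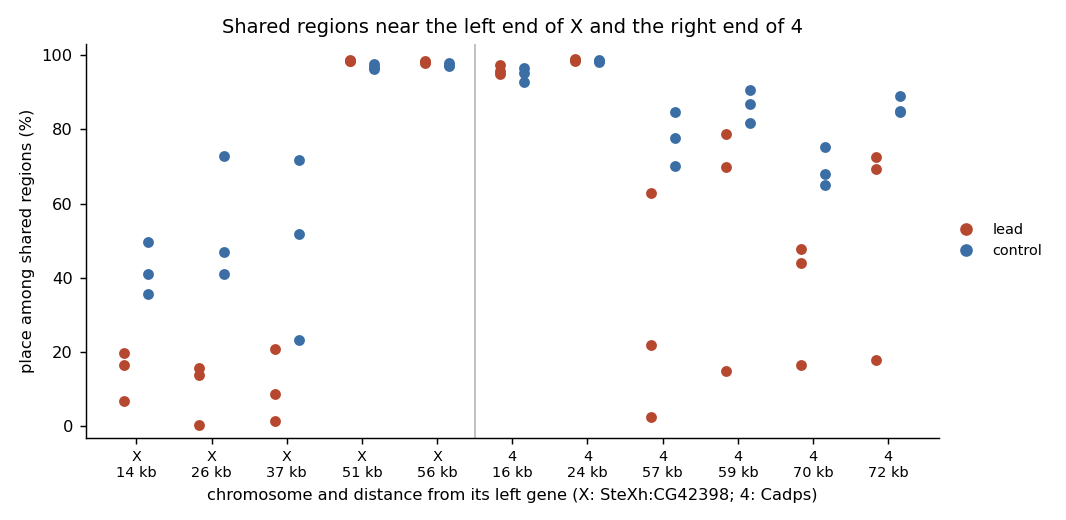
Place among the 877 shared regions (y axis, percent) of the 5 regions near the left end of X and the 6 beyond Cadps on chromosome 4, each labelled with its distance from the gene on its left (x axis); red points are lead and blue points control libraries. In 7 of the 11 every lead point lies below every control point, while at X:53619-54193 every lead point lies above, with all places from 96.2 to 98.6.

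Other lower regions included 3L:5123261-5123724 near CG4597, with places of 52.1, 47.3 and 61.1 in lead and 82.4, 83.5 and 78.9 in control libraries, and 3 neighbouring regions between CG12877 and Ets98B, an ETS-family transcription factor gene, on 3R. Among members whose groups did not overlap, the largest difference in the other direction was 2R:147791-148198, before DIP-lambda, with 37.7, 41.7 and 59.0 in lead and 9.69, 21.0 and 10.5 in control libraries (difference 32.4, the second highest of the 877). Next among these were 3L:26401548-26402119 near CG42598 (59.9, 89.1 and 84.4 in lead, 48.7, 59.0 and 50.6 in control) and 2R:1326003-1326382 near Yeti, a gene of a chromatin-associated protein (70.2, 73.1 and 68.9 in lead, 42.9, 54.4 and 42.9 in control). Without lead library 1 the difference at 2R:147791-148198 was 36.6 and that at 3L:5123261-5123724 was -27.4.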

How the data were processed

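MeDIP-seq peak lists of 6 adult-head libraries (3 lead, 3 control, grouped by their titles) were used. The submitters' processing notes name cutadapt for trimming, Bowtie2 2.1.0 for alignment and dm6 as the build; which peak caller and threshold were used is not given in the sources used here. The authors deposited 1 list per library, called against its own input, giving each peak a whole-number score of unstated meaning; scores were compared only within a list. Lists repeat rows and each peak was counted once, with 1-based starts.

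Peaks overlapping by at least 1 bp were merged. Gene spans were read from RefSeq for the dm6 assembly (17684 genes on the 6 chromosomes; no strand or exons), and distance was taken to the gene span. Depth per library is unknown, so its effect on peak numbers was not removed. Pericentric bounds are approximate and set by hand.

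Groups were compared by exact permutation of the 6 labels (20 assignments), and members with other regions by sign flips over libraries (64 assignments), all two-sided. Regions were named by fixed rules on libraries, rank, distance and gap size. Members and lists were chosen with earlier results of these data known. Alternatives were other distances, stricter or equal peak numbers, merging within 100 bp, coding genes only, pericentric sequence left out, each library left out and the replicate number as a block. Pericentric sequence only, regions beyond outermost genes left out and places among shared regions were added after the data were seen. The functions were tested on simulated lists. Region sequences were not analysed here. Software: scipy 1.17.1, pandas 2.3.3, numpy 2.4.6, matplotlib 3.10.9, all under Python 3.11.15.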

Additional observations from a re-analysis of the deposited data

How the results depend on the processing

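Of 173 values under an alternative, 121 were classed as unchanged. Tested values had to keep their direction and side of the threshold, and counts had to stay close to the main count. The 121 include counts under the replicate block, which cannot change. With equal numbers of peaks, lead minus control turned to -1 region, -1.11 kb and 0.00102 percentage points of share. The lead-only and control-only counts were then 1 and 1. By place, 8 members were lower in lead (8.60%, against 8.46% of all shared regions). Without pericentric sequence the density log2 ratio was -0.20, width difference -2.83 bp, shared percentile difference -8.70 and lead-only count 0. The higher-in-lead count was 4 there (9.09%, against 5.17% of all shared regions). Within pericentric sequence alone the values were 0.12 for density, -10 bp for width and 1.47 points for share. With places ranked anew among pericentric shared regions only, 7 members were lower (7.53%) and 9 higher (9.68%). The share of all pericentric shared regions was 6.5% in each direction. Density was 0.0285 beyond 2000 bp and 0.12 from coding genes only. Beyond 10000 bp, percentile and width differences were 6.43 and 8.17 bp, with 8 lower in lead (7.62%, against 7.87% of all shared regions). At scores above the list median the percentile difference was 3.47, the shared percentile difference -0.36, control-only 3 and higher-in-lead 11 (13.4%, against 7.43%). With equal peak numbers the percentile difference was 4.25. Without regions beyond outermost genes 11 were higher (9.32%, against 4.78%). Leaving out each library gave -9.67 to 125.7 regions, -3.29 to 45.3 kb and -0.77 to 0.62 points of share. It gave -0.84 to 7.62 points of shared percentile, 0.24 to 0.30 for density, 4 to 32 lead-only and 1 to 5 control-only regions. Lead-only and control-only shares over all regions were not computed under these alternatives, so those counts cannot be read as particular to members. By place, 17 to 27 members were lower (12.1% to 15.9%, against 11.9% to 12.4% of all shared regions). Higher members numbered 20 to 31 (12.7% to 22.3%, against 9.07% to 11.9%). The cause of these changes was not tested. Same-numbered libraries did not deviate together (r of 0.01, -0.06 and 0.02), and with the replicate number as a block the region difference was 46 (exact sign-flip p = 0.75). Depth is unknown, which limits every statement of absence.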
